A study of Mus musculus with 6 samples.

Results

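Tumor necrosis factor (TNF) superfamily ligands were followed in CD8 T cells of control mice and of mice with a floxed IFNγ receptor gene. The 9 ligand genes were taken by name: *Tnf*, *Lta*, *Ltb*, *Fasl*, *Tnfsf8*, *Tnfsf10*, *Tnfsf11*, *Tnfsf14* and *Cd40lg*, out of 32285 genes in the deposited files. All 9 had UMIs (unique molecular identifiers, tags that mark single RNA molecules) in each of the 4 expression libraries. Mice carried B16-OVA tumors, a melanoma line that expresses ovalbumin. Control mice had the genotype CD8-Cre Rosa26Tomato, and CD8-IFNγRKO mice the genotype CD8-Cre IFNgR1flox/flox Rosa26Tomato, so that both carried the Cre recombinase and the Tomato reporter and only the CD8-IFNγRKO mice had a floxed *Ifngr1*, the gene of the receptor chain that binds IFNγ. The series text calls the controls WT mice, while the sample labels give them Cre and Tomato. Tumors and draining lymph nodes (LN) were taken on day 12 per the series text, 3 mice contributed to each pool, and CD45+ CD3+ CD8+ Tomato+ cells were sorted into 1 library per tissue and genotype, with TCR libraries for both tumors. No age was given in the labels, and Tomato marks past activity of Cre rather than loss of the receptor.

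Ligands of the TNF superfamily are made as membrane proteins that assemble into trimers, and some are cut from the surface by proteases. Their receptors either carry a death domain that can start apoptosis or recruit TRAF adaptors that activate NF-κB. T cells use *Fasl*, *Tnf* and *Tnfsf10* against target cells, the lymphotoxins *Lta* and *Ltb* in the organisation of lymphoid tissue, and *Tnfsf8*, *Tnfsf11*, *Tnfsf14* and *Cd40lg* in exchanges with dendritic cells, B cells and other T cells.

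After filtering, 8582 CD8-IFNγRKO and 7041 control tumor cells and 6725 CD8-IFNγRKO and 6638 control LN cells remained, with 28806449 to 92989333 UMIs per library. Throughout, tumor cells and LN cells are the sorted CD8 T cells of each tissue, not melanoma cells. CD8-IFNγRKO tumor cells were deeper (median 9355 UMIs) than control tumor cells (6278 UMIs), and LN cells had medians of 3862 and 4050.5 UMIs. Levels are pooled CPM, a gene's count among 1000000 UMIs of a group of cells, with 95% Poisson intervals in brackets, and ratios are log2 values with 1 CPM added, with 95% conditional binomial intervals. Since each group was 1 library, there was no test between genotypes or tissues, and the intervals cover counting error only, not the difference between mice. *Ifngr1* stood at 238 CPM in the CD8-IFNγRKO tumor library against 721 CPM in the control and at 137 against 182 CPM in LN. The counts are per gene and do not tell which part of *Ifngr1* a read came from. The source of the UMIs that remained in the CD8-IFNγRKO libraries was not tested. The 7 CD8 T cell markers summed to 6612 CPM in CD8-IFNγRKO and 8769 CPM in control tumors, and to 5596 and 5357 CPM in LN. Each of the 7 was lower in the CD8-IFNγRKO tumor library, with *Cd8a* at 1031 against 1472 CPM and *Cd3e* at 1269 against 1711 CPM. Of the other lineages, the sum of 10 macrophage or dendritic cell markers was 72.2 and 94.0 CPM in the CD8-IFNγRKO and control tumor libraries, mostly *Fcer1g* (47.3 and 64.7 CPM) and *Cd74* (7.99 and 16.9 CPM), with *Itgax* at 6.72 and 4.01 CPM, *H2-Ab1* at 6.76 and 3.87 CPM, *Cd14* at 2.42 and 2.37 CPM and the other 5, among them *Lyz2*, *Csf1r* and *C1qa*, each below 1 CPM, and the 6 B cell markers reached 247 and 241 CPM in LN, mostly *Ighm* (227 and 223 CPM) and *Cd79b* (19.3 and 17.3 CPM), with the other 4 markers each below 1 CPM. The 3 γδ T cell markers summed to 26.5 CPM in CD8-IFNγRKO and 12.6 CPM in control tumors. The gap came from *Tcrg-C1* (16.2 and 0.309 CPM), while *Tcrg-C2* was at 9.84 and 12.2 CPM and *Trdc* at 0.387 and 0.0343 CPM. The 3 CD4 T cell markers summed to 9.51 to 40.8 CPM, and melanoma, NK cell and neutrophil markers stayed at or below 2.78 CPM. Between 51 and 81 barcodes were shared by each pair of libraries.

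How did the ligands differ between genotypes in the tumor? Of the 9 genes, 6 had a mean of at least 5 CPM over both tumor libraries. Among these, 3 were lower in the CD8-IFNγRKO library by at least 0.5 on the log2 scale (*Tnf*, *Fasl* and *Tnfsf11*) and 0 were higher. Over all 8788 genes with that mean, 4.96% were lower and 7.34% higher by the same limit. The median log2 ratio of the 6 ligands was -0.53, and that of all these genes 0.01. The CD8 T cell markers were lower in the CD8-IFNγRKO tumor library too, as given above, so that lower CPM there was not limited to the ligands. In LN, 5 of the 9 ligands had the required mean, of which 1 was lower (*Tnf*) and 0 higher, beside 0.463% lower and 0.266% higher among 8635 genes. There the median of the ligands was -0.19 and that of all genes 0.03.

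**Figure D1:**
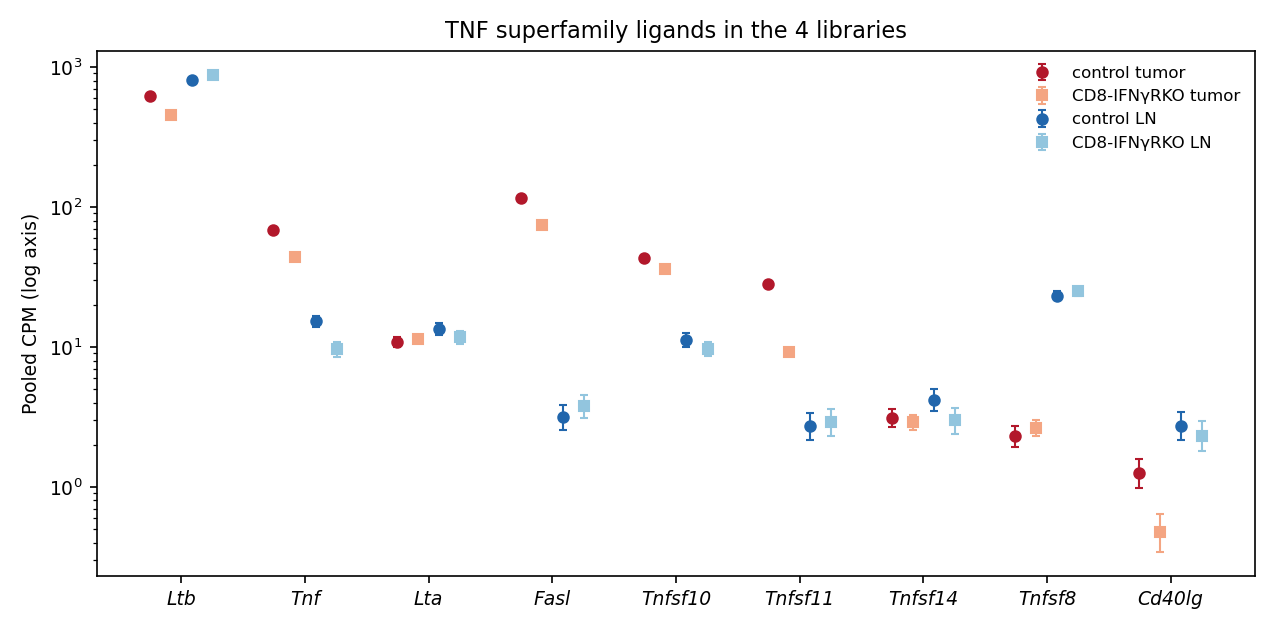
Pooled CPM of the 9 ligands (log axis) in the control tumor, CD8-IFNγRKO tumor, control LN and CD8-IFNγRKO LN libraries, 1 point per library with 95% Poisson intervals. *Fasl*, *Tnf*, *Tnfsf10* and *Tnfsf11* were higher in tumors than in LN, *Tnfsf8* was higher in LN, and *Lta* and *Tnfsf14* differed little between tissues.

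**Figure D2:**
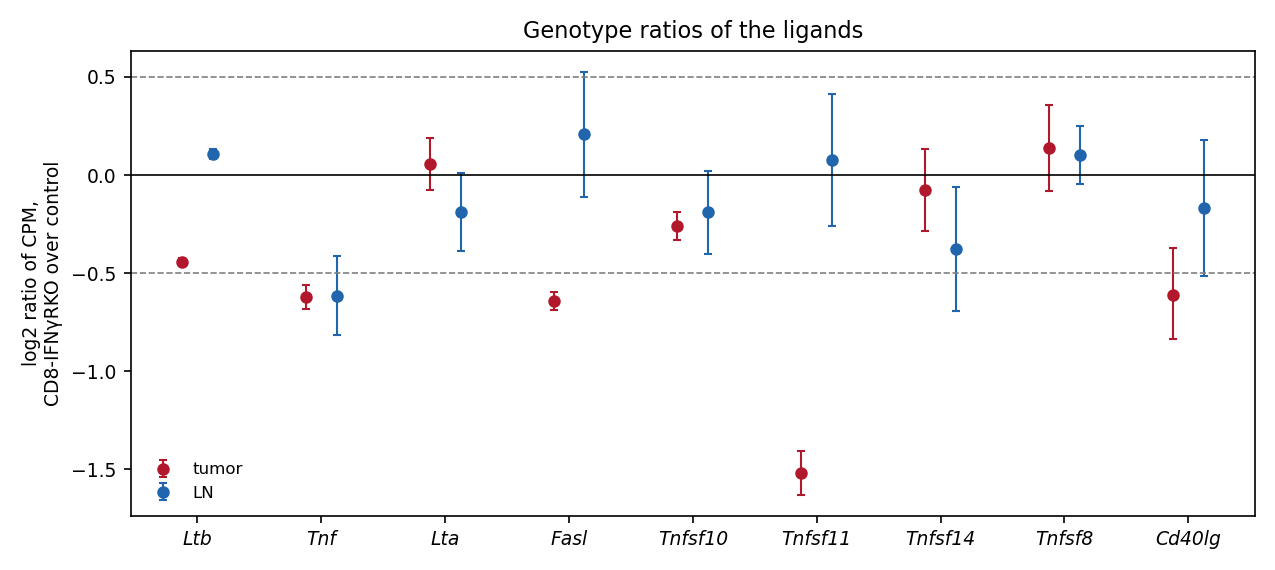
Log2 ratio of CPM of CD8-IFNγRKO over control for each ligand in tumors and in LN, with 95% conditional binomial intervals, and dashed lines at -0.5 and 0.5. *Tnfsf11* at -1.52 in tumors is the point farthest from 0, *Tnf* is near -0.6 in both tissues, and *Ltb* lies below 0 in tumors and above 0 in LN.

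*Tnf*, *Lta* and *Ltb* lie side by side on chromosome 17 in the major histocompatibility region. In the RefSeq annotation of GRCm38.p6, the build that mm10 is based on, *Ltb* (ENSMUSG00000024399) spans chr17:35194507-35196305 on the plus strand, *Tnf* (ENSMUSG00000024401) chr17:35199367-35202007 on the minus strand and *Lta* (ENSMUSG00000024402) chr17:35203165-35205578 on the minus strand. Between them lie 3061 bases from *Ltb* to *Tnf* and 1157 bases from *Tnf* to *Lta*. The promoters of *Tnf* and *Ltb* are shown because these neighbours took different courses in LN. Each is the stretch of 250 bases before the RefSeq gene start, read 5′ to 3′ on the gene's strand, chr17:35202008-35202257 (minus) for *Tnf* and chr17:35194257-35194506 (plus) for *Ltb*. Capitals mark matches on either strand to GGAAA (the NFAT core), TGANTCA (AP-1), TTCNNNGAA (the GAS element, the IFNγ-activated site) and GGG followed after 5 bases of any kind by CC (NF-κB).
Tnf: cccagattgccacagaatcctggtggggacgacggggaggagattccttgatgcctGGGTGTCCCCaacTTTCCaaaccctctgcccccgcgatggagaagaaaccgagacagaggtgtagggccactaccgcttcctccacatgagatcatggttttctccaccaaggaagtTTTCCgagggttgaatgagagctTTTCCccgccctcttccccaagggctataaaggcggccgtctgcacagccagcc
Ltb: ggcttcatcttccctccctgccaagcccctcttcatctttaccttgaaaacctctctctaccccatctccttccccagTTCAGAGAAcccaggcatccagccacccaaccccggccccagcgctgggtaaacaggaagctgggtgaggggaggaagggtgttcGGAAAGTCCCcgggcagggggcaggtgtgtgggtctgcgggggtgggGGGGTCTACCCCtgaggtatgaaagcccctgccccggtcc
The *Tnf* window held 3 NFAT cores and 1 NF-κB match, with neither a GAS nor an AP-1 match. The *Ltb* window held 1 GAS match, 1 NFAT core and 4 NF-κB matches, of which 3 overlap in a single run of capitals and the other holds the NFAT core. Among 32851 promoter windows of the same length, 55.6% held an NFAT core, 45.8% an NF-κB match, 7.02% a GAS match and 6.75% an AP-1 match. Of the 8 ligand promoters in the RefSeq table (all but *Cd40lg*), 8 held an NFAT core, 6 an NF-κB match, 2 a GAS match (*Lta* and *Ltb*) and 1 an AP-1 match (*Tnfsf14*). The start in that table lies within the annotated gene for *Lta* and *Tnfsf8*, so that 227 and 224 of the 250 bases of their windows, both *Lta* GAS matches included, are inside the gene rather than before it. A match of letters is a description of the window and shows no binding.

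*Tnf*, the inflammatory cytokine that binds *Tnfrsf1a* and *Tnfrsf1b*, was lower in the CD8-IFNγRKO library of both tissues. Its level was 68.5 (66.4 to 70.7) CPM in control tumors, 44.2 (42.8 to 45.6) CPM in CD8-IFNγRKO tumors, 15.2 (13.9 to 16.7) CPM in control LN and 9.62 (8.52 to 10.8) CPM in CD8-IFNγRKO LN. No interval overlapped another, so that each tumor library stood above each LN library and each control above its CD8-IFNγRKO counterpart. The log2 ratio of genotypes was -0.62 (-0.68 to -0.56) in tumors and -0.61 (-0.82 to -0.41) in LN, which is 1.55-fold and 1.59-fold lower CPM. Between tissues, *Tnf* was 4.49-fold higher in tumor than in LN of controls and 4.60-fold higher in CD8-IFNγRKO mice. The share of cells with a *Tnf* UMI, after each cell was thinned to 1600 UMIs, followed the same order: 10.9% (10.1 to 11.7) and 6.91% (6.38 to 7.48) in control and CD8-IFNγRKO tumors, and 2.27% (1.91 to 2.66) and 1.41% (1.14 to 1.72) in LN. Without thinning these shares were 33.5%, 28.7%, 5.89% and 3.57%.

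*Ltb*, the membrane-anchored lymphotoxin chain that holds *Lta* at the cell surface and signals through *Ltbr* on stromal and myeloid cells, was the most abundant of the 9 by UMIs. Its level was 810 (800 to 821) CPM in control LN and 872 (861 to 883) CPM in CD8-IFNγRKO LN, against 621 (615 to 628) CPM in control tumors and 457 (453 to 462) CPM in CD8-IFNγRKO tumors. The genotype ratio was therefore -0.44 (-0.46 to -0.42) in tumors and 0.11 (0.08 to 0.13) in LN, both under the limit of 0.5. Thinned cells with an *Ltb* UMI made up 60.6% (59.4 to 61.8) of control and 50.1% (49.0 to 51.1) of CD8-IFNγRKO tumor cells, and 69.2% (68.1 to 70.4) and 72.8% (71.7 to 73.8) of LN cells, whereas unthinned shares in tumors were nearly equal at 87.8% and 87.7%. Secreted or surface-bound lymphotoxin-α is encoded by *Lta*, whose level over whole libraries hardly moved. It was 10.8 (10.0 to 11.7) CPM in control tumors, 11.3 (10.7 to 12.0) CPM in CD8-IFNγRKO tumors, 13.5 (12.2 to 14.9) CPM in control LN and 11.7 (10.5 to 13.1) CPM in CD8-IFNγRKO LN. The genotype ratio of *Lta* had an interval that held 0 in tumors, 0.06 (-0.07 to 0.19), and in LN, -0.19 (-0.38 to 0.01). In CD8-IFNγRKO tumors the 1% of cells with most *Lta* UMIs held 41.5% of them, and a single cell held 34, while the top 1% held 5.35% of *Ltb* UMIs and 13.6% of *Tnf* UMIs. In control tumors these shares were 35.9% for *Lta*, 5.68% for *Ltb* and 11.7% for *Tnf*. Other ligands with few UMIs had high shares too, such as 44.1% for *Tnfsf11* and 56.5% for *Tnfsf8* in CD8-IFNγRKO tumors.

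The death ligands *Fasl* and *Tnfsf10* had higher levels in CD8 T cells of tumors than in those of LN. *Fasl* (ENSMUSG00000000817, chr1:161780691-161788495, minus strand) encodes the ligand of the death receptor *Fas*, and *Tnfsf10* (ENSMUSG00000039304, chr3:27317077-27339665, plus strand) encodes TRAIL, which binds *Tnfrsf10b*. The level of *Fasl* was 116 (113 to 119) CPM in control tumors and 74.1 (72.3 to 75.8) CPM in CD8-IFNγRKO tumors, while in LN it was 3.14 (2.54 to 3.85) and 3.78 (3.11 to 4.56) CPM. Its genotype ratio was -0.64 (-0.69 to -0.59) in tumors, a 1.57-fold lower CPM, and 0.21 (-0.11 to 0.53) in LN, from 109 and 94 UMIs. Tumor exceeded LN 36.9-fold in controls and 19.6-fold in CD8-IFNγRKO mice. Thinned cells with a *Fasl* UMI were 18.2% (17.2 to 19.1) of control and 13.0% (12.3 to 13.8) of CD8-IFNγRKO tumor cells, and 0.328% and 0.509% of LN cells. Without thinning they were 53.3%, 48.4%, 1.33% and 1.44%. *Tnfsf10* was also higher in tumors than in LN, with a smaller gap, at 43.4 (41.7 to 45.1) CPM in control tumors, 36.1 (34.9 to 37.3) CPM in CD8-IFNγRKO tumors, 11.2 (10.1 to 12.5) CPM in control LN and 9.72 (8.61 to 10.9) CPM in CD8-IFNγRKO LN. Its genotype ratio was -0.26 (-0.33 to -0.19) in tumors and -0.19 (-0.40 to 0.02) in LN, under the limit in both tissues.

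*Tnfsf11* (ENSMUSG00000022015, chr14:78277446-78308043, minus strand) encodes RANKL, which drives osteoclast formation and supports dendritic cell survival through *Tnfrsf11a*. It had the lowest genotype ratio of the 9 ligands in tumors. The windows of 250 bases before its start and that of *Fasl* are given because these 2 ligands and *Tnf* passed the limit in tumors, chr14:78308044-78308293 for *Tnfsf11* and chr1:161788496-161788745 for *Fasl*, both minus strand, with capitals as above.
Tnfsf11: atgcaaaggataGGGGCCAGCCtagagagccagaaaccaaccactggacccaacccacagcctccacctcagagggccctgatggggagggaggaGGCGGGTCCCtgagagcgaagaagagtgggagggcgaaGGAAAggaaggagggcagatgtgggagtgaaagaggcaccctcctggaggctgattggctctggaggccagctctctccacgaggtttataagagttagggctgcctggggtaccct
Fasl: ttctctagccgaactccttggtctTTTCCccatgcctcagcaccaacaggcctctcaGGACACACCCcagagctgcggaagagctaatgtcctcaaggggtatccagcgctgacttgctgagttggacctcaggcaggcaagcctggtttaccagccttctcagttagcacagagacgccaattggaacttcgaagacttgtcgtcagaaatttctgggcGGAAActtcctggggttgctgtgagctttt
The *Tnfsf11* window held 1 NFAT core and 2 NF-κB matches and the *Fasl* window 2 NFAT cores and 1 NF-κB match, with no GAS and no AP-1 match in either. The level of *Tnfsf11* was lower in CD8-IFNγRKO tumors: it was 28.3 (27.0 to 29.7) CPM in control and 9.26 (8.65 to 9.90) CPM in CD8-IFNγRKO tumors, while LN held 2.71 (2.15 to 3.37) and 2.92 (2.33 to 3.61) CPM, control before CD8-IFNγRKO. The ratio was -1.52 (-1.63 to -1.41) in tumors, a 3.06-fold lower CPM, and 0.08 (-0.26 to 0.41) in LN. The tumor level of *Tnfsf11* was 10.5-fold that of LN in controls and 3.18-fold in CD8-IFNγRKO mice. Both the number of positive cells and the level within them differed. Thinned cells with a *Tnfsf11* UMI were 3.11% (2.69 to 3.56) of control and 1.37% (1.13 to 1.65) of CD8-IFNγRKO tumor cells, and 21 control cells but 3 CD8-IFNγRKO cells held 10 or more of its UMIs before thinning.

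Of the remaining ligands, *Tnfsf8*, which encodes the ligand of CD30, had higher library levels in LN than in tumors. It was at 23.2 (21.5 to 24.96) CPM in control and 24.96 (23.2 to 26.9) CPM in CD8-IFNγRKO LN, against 2.31 (1.94 to 2.74) and 2.65 (2.33 to 3.00) CPM in tumors. This is 10.0-fold lower in tumor than in LN for controls and 9.43-fold lower for CD8-IFNγRKO mice, and its genotype ratio had an interval across 0 in tumors, 0.14 (-0.08 to 0.36), and in LN, 0.10 (-0.04 to 0.25). *Tnfsf14* encodes LIGHT, a costimulatory ligand of *Tnfrsf14* and *Ltbr*, and stayed between 2.90 and 4.18 CPM in the 4 libraries. Its ratio was -0.08 (-0.29 to 0.13) in tumors and -0.38 (-0.69 to -0.06) in LN, where 86 UMIs in the CD8-IFNγRKO library stood against 125 in the control. *Cd40lg*, the helper ligand that CD4 T cells use to license dendritic cells and B cells, had the fewest UMIs of the 9 in both tumor libraries. It was found at 1.25 (0.98 to 1.57) CPM in control tumors, 0.473 (0.344 to 0.635) CPM in CD8-IFNγRKO tumors, 2.74 (2.18 to 3.40) CPM in control LN and 2.33 (1.80 to 2.95) CPM in CD8-IFNγRKO LN. With 44 UMIs in the CD8-IFNγRKO and 73 in the control tumor library, it was below the required mean in every comparison.

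Between tissues, 7 ligands had a mean of at least 5 CPM in each genotype. In controls, 4 were higher in tumor by at least 1 on the log2 scale (*Tnf*, *Fasl*, *Tnfsf10* and *Tnfsf11*) and 1 was lower (*Tnfsf8*), beside 14.6% of 8964 genes higher and 10.1% lower. The same 5 genes passed in CD8-IFNγRKO mice, where 15.8% of 9011 genes were higher and 11.8% lower. *Fasl* and *Tnfsf11* were below 5 CPM in both LN libraries, and *Tnfsf8* was below it in both tumor libraries. These ligands reached the mean only through the tissue where they are high. That entry favors a call, so that the counts and medians of the ligands are not separate evidence of a tissue difference. The tissue ratio of *Ltb*, tumor over LN, was -0.38 (-0.41 to -0.36) in controls and -0.93 (-0.95 to -0.91) in CD8-IFNγRKO mice. Both values moved in thinned cells without a UMI of cycling markers, as given below. The median tissue ratio of the 7 ligands was 1.86 in controls and 1.39 in CD8-IFNγRKO mice, with 0.02 and 0.03 over all genes. Each tissue comparison shared libraries with the genotype comparisons, so that they are not independent of each other.

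Markers of cycling cells moved with genotype in tumors. The 16 cycling markers summed to 2660 CPM in CD8-IFNγRKO and 1712 CPM in control tumors, and 26.8% and 50.9% of thinned cells had no UMI of any of them. In LN these shares were 87.1% and 87.3%. Within the thinned tumor cells without a cycling UMI, the log2 ratio was -1.55 for *Tnfsf11*, -0.80 for *Tnf*, -0.46 for *Fasl* and -0.21 for *Ltb*, so that *Fasl* no longer passed the limit of 0.5. In the same cells *Tnfsf8* had a ratio of 1.29 and *Tnfsf14* one of 0.59. The part of cycling in the lower *Fasl* level was not tested. With the tumor clusters weighted as in the control library, the ratios of *Tnfsf11*, *Fasl* and *Tnf* were -1.52, -0.64 and -0.62. These clusters were built after alignment of the libraries, with cell cycle scores regressed out, so that the weighting cannot address cycling. Without alignment, a cluster led by *Gzmc* and *Fdps* held 48.1% of CD8-IFNγRKO and 11.1% of control tumor cells. Another, led by *Gzmd* and *Gzme*, held 2.32% and 29.9%. The part of such differences in cell state in these ratios was not tested. In thinned cells without a cycling UMI, tissue ratios, tumor over LN, moved too. Given for controls and then CD8-IFNγRKO mice, *Tnfsf8* was at -2.16 and -1.03, against -2.87 and -2.83 in all cells. *Ltb* was at -0.03 and -0.36, and *Tnfsf14* at 0.33 and 1.72, against -0.33 and -0.03. *Fasl* was at 5.69 and 4.55, against 4.82 and 3.97. The part of cycling in these shifts was not tested.

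Barcodes of other lineages were read for the ligands as well. They were picked by markers of those lineages and may express ligands themselves, so that they do not measure stray RNA alone. In 71 barcodes with markers of another lineage and no UMI of 6 T cell genes, whose library medians were 846 to 2470 UMIs, *Tnf*, *Fasl*, *Tnfsf8*, *Tnfsf11* and *Cd40lg* had 0 of 296043 UMIs, which allows up to 10.1 CPM and up to 4.23% of such barcodes. *Ltb* had 115 UMIs there, 60 in CD8-IFNγRKO and 52 in control LN, against 0 and 3 in tumors. Its level in the barcodes of the LN libraries was 1165 (870 to 1528) CPM for control mice, above the 810 CPM of the cells kept. For CD8-IFNγRKO mice it was 1064 (812 to 1370) CPM, an interval that held the 872 CPM of the cells kept. The source of these *Ltb* UMIs was not tested. *Tnfsf14* had 4 UMIs, all in the control tumor library, which is 92.2 (25.1 to 236) CPM there against 3.12 CPM in the cells kept. *Tnfsf10* had 4 UMIs and *Lta* 3. For a share of cells in LN below 4.23%, these barcodes are too few to serve as a comparison. The bound of 10.1 CPM pools all libraries. In a single library, the Poisson interval of 0 UMIs reached 24.3 CPM in CD8-IFNγRKO and 85.0 CPM in control tumors. In CD8-IFNγRKO and control LN it reached 65.4 and 82.7 CPM.

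The ligands were next described by cell state. Tumor cells formed 7 clusters (T0 to T6) and LN cells 9 (N0 to N8), built without the 9 ligands among the variable genes. T0 was led by *Hspb1*, *Aldoc* and *Adgrg1*, T1 by *Ccl1*, *Gzmg* and *Gzmc* (Cytotoxic-like), T2 by *Tcf7*, *Klf3* and *S1pr1*, T4 by *Ifit1*, *Ifit3* and *Rsad2* (Interferon-stimulated-like), T5 by histone genes and T6 by *Xcl1*, *Crtam* and *Il2* (TCR-activated-like, 163 CD8-IFNγRKO and 90 control cells). T3 was also led by histone genes and was shallow, with medians of 1897 and 1026 UMIs. In LN, N0 was led by *Lbr* and *Ctcf*, N1 by *Trnp1* and *Igfbp4*, N2 by *Auts2* and *Kmt2c*, N3 by *Ccl5*, *Ccl4* and *Gzmm* (Memory-like), N4 by *Tnfrsf9* and *Nfkbid* (NF-κB-activated-like), N5 by *Ifit3* and *Isg15* (Interferon-stimulated-like), N6 by *Hbb-bs*, N7 by *S100a4*, *S100a6* and *Capg*, with *Ctla4* and *Izumo1r* following, and N8 by *Pclaf* and *Mki67* (Cycling-like, 41 cells).

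The lower tumor levels of *Tnf*, *Fasl* and *Tnfsf11* were seen in each cluster. Clusters are cuts of the same libraries and not replicates, so that a difference between whole libraries can appear in each of them. All 3 were lower in the CD8-IFNγRKO cells in 7 of 7 tumor clusters, with an interval below 0 in 7 of 7. The log2 ratio by cluster ran from -1.27 to -0.30 for *Tnf*, from -0.98 to -0.36 for *Fasl* and from -2.70 to -0.97 for *Tnfsf11*. *Tnfsf10* was lower in 7 of 7 clusters, with 5 intervals below 0, and *Ltb* in 6 of 7. The histone-led cluster T5 was the exception for *Ltb*, with 450 CPM in CD8-IFNγRKO and 421 CPM in control cells. *Lta* went both ways, lower in 4 clusters and higher in 3, with 2 intervals below 0 (T0 and T5) and 2 above 0 (T1 and T3). *Fasl* was highest in the *Tcf7*-led cluster T2 of both libraries, at 160 CPM in control and 103 CPM in CD8-IFNγRKO cells. *Tnf* was at 101 and 51.1 CPM there and at 55.1 and 44.5 CPM in the Cytotoxic-like cluster T1. In control tumors *Tnf* had its highest level in the TCR-activated-like cluster T6, at 110 CPM, close to the 101 CPM of T2, whereas the CD8-IFNγRKO clusters lay between 41.4 and 51.1 CPM. *Tnfsf10*, a gene known to be induced by interferons, was highest in the Interferon-stimulated-like cluster T4 of both tumor libraries, at 72.4 CPM in control and 57.8 CPM in CD8-IFNγRKO cells, with control T3 at 72.2 CPM.

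**Figure D3:**
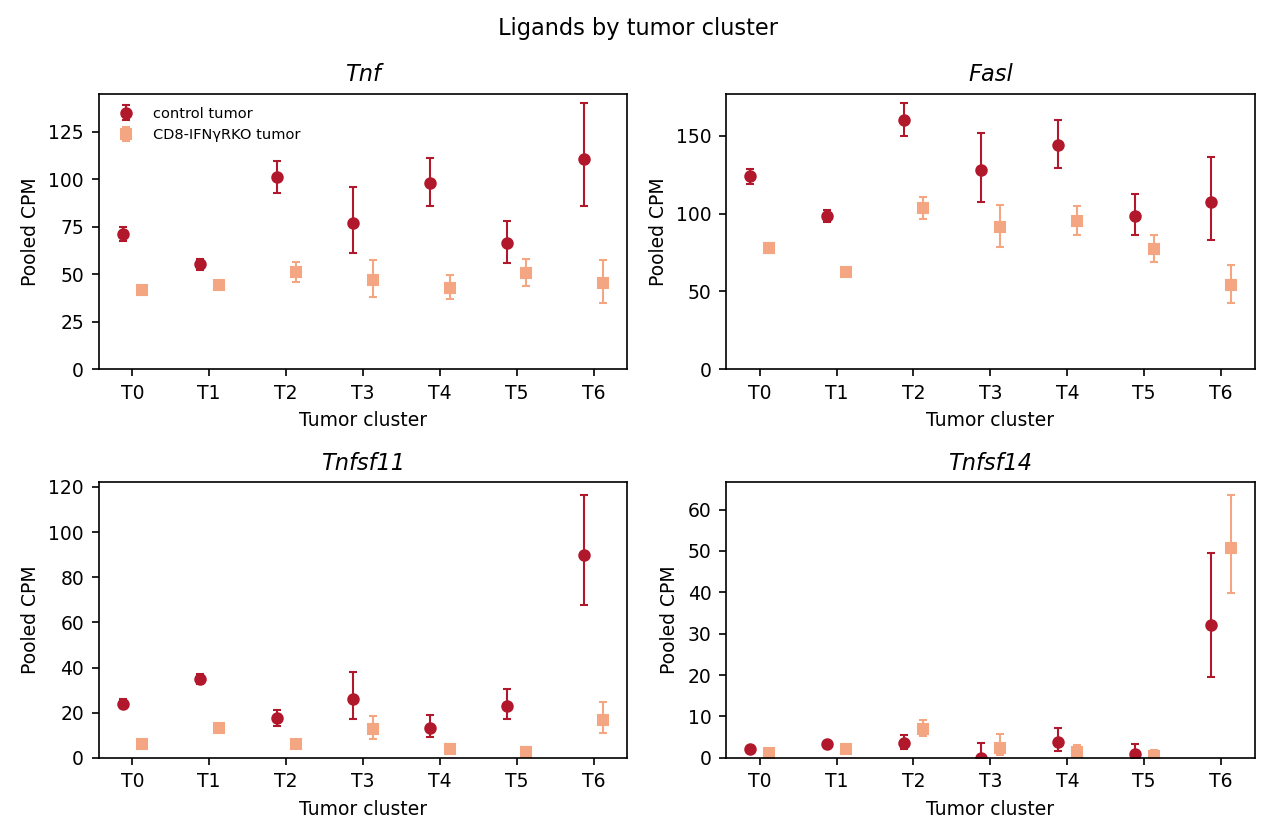
Pooled CPM of *Tnf*, *Fasl*, *Tnfsf11* and *Tnfsf14* in tumor clusters T0 to T6 for control and CD8-IFNγRKO cells, with 95% Poisson intervals. *Tnf*, *Fasl* and *Tnfsf11* were lower in CD8-IFNγRKO cells in each cluster, and *Tnfsf14* stood out in T6, of which it is a leading gene.

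Cluster T6, led by genes that TCR signaling induces, held the highest *Tnfsf14* levels and, in controls, the highest *Tnfsf11* level. *Tnfsf11* was at 89.6 CPM in its control cells and 16.9 (10.9 to 24.9) CPM in its CD8-IFNγRKO cells, and in T1 it was at 34.9 and 13.2 (12.1 to 14.4) CPM, so that the CD8-IFNγRKO intervals overlapped. *Tnfsf14* was at 32.0 and 50.6 CPM in T6 and at most 6.91 CPM elsewhere, but it is 1 of the 10 leading genes of T6, so that its height there is part of how the cluster was described. *Lta* reached 19.2 and 27.0 CPM in T6. Most *Lta* and *Tnfsf11* UMIs nonetheless came from the larger T1, which held 55.0% and 53.4% of them in controls and 63.6% and 61.1% in CD8-IFNγRKO tumors. *Tnfsf8* had its highest levels in T6 and T2, although the larger T1 held 32.6% of its UMIs in controls (15.4% in CD8-IFNγRKO tumors) and T2 25.9% (45.5%). In T2 its level was 6.25 CPM in control and 14.6 CPM in CD8-IFNγRKO cells, a ratio of 1.11 (0.61 to 1.61), and in T6 33.6 and 16.9 CPM, a ratio of -0.95 (-1.81 to -0.08).

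In LN, 2 small clusters stood out by their level of some ligands. The Memory-like cluster N3, 8.06% of control and 8.52% of CD8-IFNγRKO LN cells, held 51.1% and 51.4% of *Fasl* UMIs. *Fasl* was at 14.0 (control) and 16.7 CPM (CD8-IFNγRKO) in N3 and at most 8.36 CPM in the other LN clusters. *Tnfsf14* was at 12.0 and 8.65 CPM and *Tnfsf8* at 29.2 and 37.9 CPM in N3. *Tnf* was at 31.3 CPM in control and 12.5 CPM in CD8-IFNγRKO cells of N3, a ratio of -1.26 (-1.77 to -0.76), the lowest ratio of *Tnf* among LN clusters, and it was lower in CD8-IFNγRKO cells in 8 of 9 LN clusters, with 3 intervals below 0. The exception was N8, with 9 and 11 UMIs. *Ltb* went the other way, higher in 7 of 9 clusters with 5 intervals above 0, and the widest gaps were in N6, 929 CPM in CD8-IFNγRKO against 734 CPM in control cells, and in N3, 719 against 572 CPM.

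Cluster N7 made up 4.69% of control and 4.25% of CD8-IFNγRKO LN cells. It held larger shares of the *Cd40lg* and *Tnfsf11* UMIs of LN, though most of these UMIs lay in other clusters. *Cd40lg* was at 14.8 CPM in control and 17.0 CPM in CD8-IFNγRKO cells of N7 and at most 3.37 CPM elsewhere, and 32.9% and 38.8% of its UMIs came from N7. *Tnfsf11* was at 15.9 and 19.0 CPM in N7 with 35.8% and 34.5% of its UMIs. *Lta* had its highest LN level there, at 41.8 CPM in control cells and 29.5 CPM in CD8-IFNγRKO cells. *Tnfsf8* did so as well, at 45.6 and 39.3 CPM. Of the CD4 T cell markers, *Izumo1r* was at 172 and 115 CPM in N7, *Foxp3* at 14.3 and 5.89 CPM and *Cd4* at 17.6 and 27.5 CPM, while *Cd8a* was at 1148 and 976 CPM. Cells with a *Cd4* UMI were 4.28% of control and 7.30% of CD8-IFNγRKO LN cells and held 4 of 82 (4.88%) and 8 of 67 (11.9%) *Cd40lg* UMIs.

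**Figure D4:**
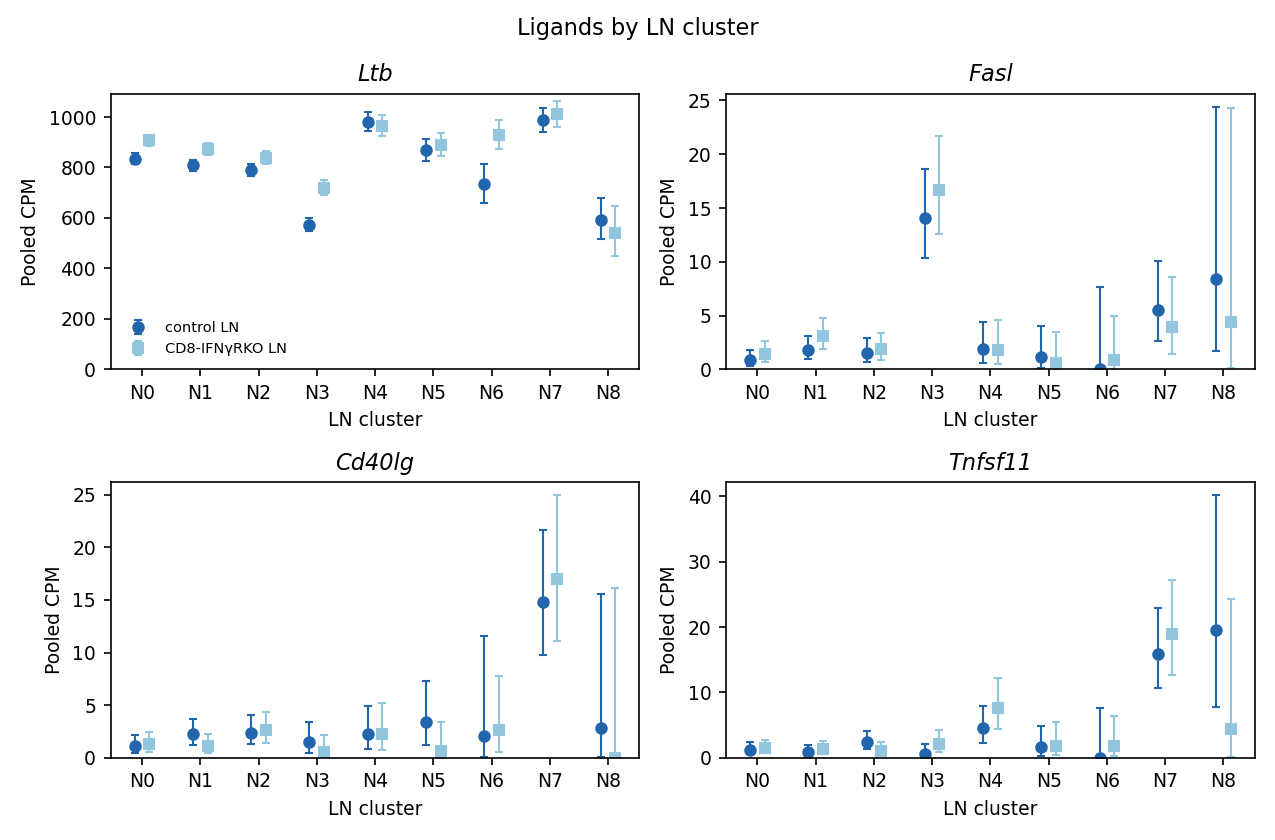
Pooled CPM of *Ltb*, *Fasl*, *Cd40lg* and *Tnfsf11* in LN clusters N0 to N8 for control and CD8-IFNγRKO cells, with 95% Poisson intervals. *Fasl* peaked in N3, *Cd40lg* in N7, *Tnfsf11* in N7 and, with 7 UMIs, in control N8, and *Ltb* was lowest in N3 and N8.

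Clone size was read from the TCR libraries of the tumors. Both chains were found in 5913 of the 8582 CD8-IFNγRKO cells (68.9%), which formed 429 clones, and in 4264 of the 7041 control cells (60.6%), which formed 257 clones. Expanded clones of 10 or more cells were set against clones seen in 1 cell, and *Lta*, *Tnfsf11* and *Cd40lg* had intervals across 0 in both genotypes. *Fasl* was at 125 CPM in expanded and 55.8 CPM in single-cell clones of controls, and at 73.8 and 29.8 CPM in CD8-IFNγRKO tumors. *Tnf* was at 76.1 and 24.6 CPM in controls and at 44.9 and 28.0 CPM in CD8-IFNγRKO tumors, so that the genotypes differed in expanded clones and had overlapping intervals in single-cell clones. *Tnfsf8* ran opposite, at 1.48 CPM in expanded and 25.7 (16.3 to 38.5) CPM in single-cell clones of controls, and at 0.986 and 48.6 (38.9 to 60.2) CPM in CD8-IFNγRKO tumors, from 23 and 85 UMIs in the 180 and 364 single-cell clones. The log2 ratio of expanded over single-cell clones of *Tnfsf8* was -3.43 (-4.04 to -2.74) in controls and -4.64 (-4.97 to -4.28) in CD8-IFNγRKO tumors. *Ltb* was also lower in expanded clones of CD8-IFNγRKO tumors, 451 against 749 CPM, and had a ratio of -0.11 (-0.22 to 0.01) in controls. For *Tnfsf11* the ratio was -0.18 (-0.72 to 0.41) in controls and -0.41 (-0.97 to 0.18) in CD8-IFNγRKO tumors. That of *Tnfsf10* was 2.58 (1.56 to 3.74) in controls, from 6 UMIs in single-cell clones, and 0.47 (0.07 to 0.91) in CD8-IFNγRKO tumors. For *Tnfsf14* it was -0.57 (-1.78 to 0.76) and -2.70 (-3.20 to -2.17). Levels did not simply rise with clone size. In CD8-IFNγRKO clones of 2 to 9 cells, *Fasl* was at 92.3 (76.0 to 111) and *Tnf* at 62.6 (49.4 to 78.4) CPM. Both were above the expanded clones, with intervals of 71.6 to 75.9 and 43.2 to 46.6 CPM. In controls these clones held 137 (116 to 159) and 73.0 (58.3 to 90.2) CPM. The median depth of cells of single-cell clones was 4041 and 3997.5 UMIs, control before CD8-IFNγRKO, and that of expanded clones 6315.5 and 10497 UMIs.

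**Figure D5:**
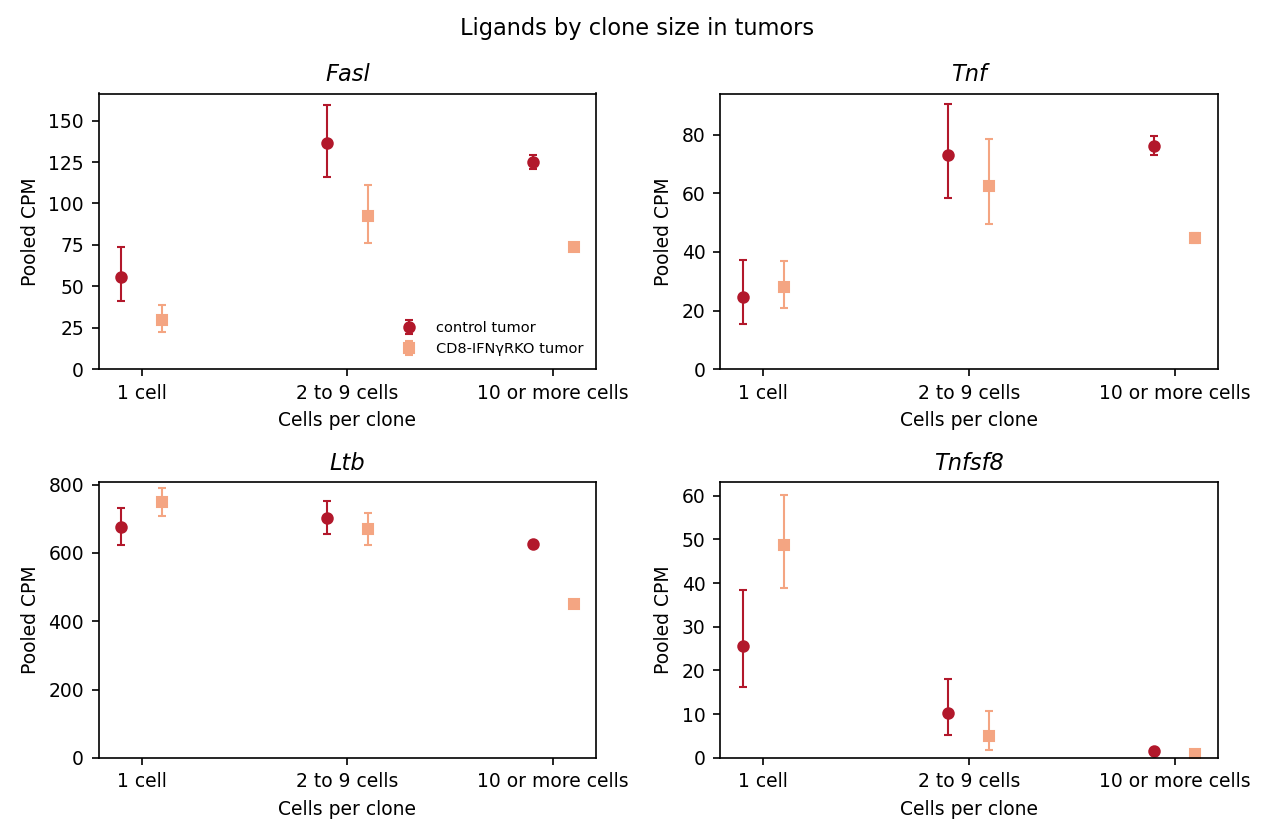
Pooled CPM of *Fasl*, *Tnf*, *Ltb* and *Tnfsf8* in tumor cells of clones with 1 cell, 2 to 9 cells and 10 or more cells, for control and CD8-IFNγRKO tumors, with 95% Poisson intervals. *Fasl* and *Tnf* were lowest in single-cell clones, and *Tnfsf8* was highest there.

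Large clones differed among themselves. Over the 10 largest clones of control tumors, of 54 to 1098 cells, *Fasl* ran from 108 to 162 CPM with a median of 130 CPM, and over those of CD8-IFNγRKO tumors, of 132 to 1459 cells, from 62.6 to 169 CPM with a median of 72.3 CPM. *Tnf* ran from 11.0 to 117 CPM (median 66.3) and from 25.9 to 63.5 CPM (median 40.0), and *Tnfsf11* from 6.81 to 49.3 CPM (median 21.2) and from 2.32 to 19.4 CPM (median 6.61). The ranges of both genotypes overlapped for each of these 3 ligands. For *Fasl* the overlap came from 1 CD8-IFNγRKO clone, of 149 cells and 626413 UMIs, at 169 CPM. The next highest CD8-IFNγRKO clone was at 106 (91.5 to 123) CPM. Clones of 1 library are not replicates of a genotype, since they come from 3 pooled mice.

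Cells often carried more than 1 ligand transcript. After thinning, 74.0% of control and 63.1% of CD8-IFNγRKO tumor cells had a UMI of at least 1 of the 9 ligands, and 24.2% and 15.5% of at least 2. In LN these shares were 72.5% and 75.2%, and 7.78% and 7.33%. For pairs of ligands found together, the number of cells was set against the product of the shares of each. *Tnf* and *Fasl* shared 121 control tumor cells where the product gave 125, and *Tnf* and *Ltb* 448 where it gave 418. Among pairs found in at least 10 cells, the pair farthest above the product was *Tnf* with *Tnfsf14*, 12 control tumor cells against 4.56, followed by *Tnf* with *Lta*, 18 against 10.3. The CD8-IFNγRKO tumor library did not repeat this for *Tnf* with *Lta*, 8 cells against 9.40. For *Tnf* with *Tnfsf14* it held 5 cells against 3.94.

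Levels of the ligands were also compared with those of other genes over 31 pseudobulks of cluster and library, which share libraries and depth and are therefore described without a test. The pseudobulks span tumor and LN, so that the gap between tissues enters each r, and r within a tissue was not computed. By Pearson's r of log2 CPM over 5784 genes, *Tnf* was closest to *Bhlhe40* (0.96), *Crlf2* and *Klf10* (both 0.95), *Fasl* to *Tmem163* (0.99), *Wdr95* and *Gem* (both 0.98) and *Tnfsf10* to *Psmb8*, *AW112010* and *Entpd1* (all 0.95). *Tnfsf8* was closest to *Plcxd2* (0.95), *Ccr7* and *Id3* (both 0.94), *Tnfsf11* to *Tgfb1* (0.91), *Nrn1* (0.90) and *Traf1* (0.88), and *Ltb* to *Il27ra* and *Ccpg1* (both 0.91) and *Fau* (0.90). *Lta* was closest to *Sdhaf1* (0.90), with *Pou2f2* (0.77) and *Fas* (0.75) next, *Tnfsf14* to *Zfpm1* (0.82) and *Cd40lg* to *Tox4* (0.72). Among the ligands themselves, r was 0.93 for *Tnf* with *Fasl*, 0.90 for *Fasl* with *Tnfsf10*, -0.77 for *Tnfsf8* with *Tnfsf10* and -0.14 for the neighbours *Tnf* and *Lta*.

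Receptors and signaling genes of the pathway were read in the same cells. Of 9 other TNF superfamily ligands, 2 had the required mean in tumors: *Tnfsf9* (4-1BB ligand) had a genotype ratio of 0.52 (0.39 to 0.66) and *Tnfsf13b* (BAFF) one of -0.87 (-1.01 to -0.72). Of 12 receptors of the 9 ligands, 3 had it. *Tnfrsf1b*, the receptor of *Tnf* and *Lta* on activated T cells, had a ratio of -0.54 (-0.59 to -0.49), *Fas* -0.36 (-0.46 to -0.25) and *Tnfrsf1a* -0.20 (-0.30 to -0.11). All 22 adaptor, protease and NF-κB genes had it, 0 were higher and 2 lower by the limit, with a median of -0.24. Over all 8788 genes in tumors, 4.96% were lower and 7.34% higher. The NF-κB subunit *Rel* was at -0.87 (-0.93 to -0.80) and the NF-κB inhibitor *Tnfaip3* at -0.63 (-0.65 to -0.61), and the largest ratios above 0 were those of *Tradd* at 0.16 (0.09 to 0.23) and *Casp8* at 0.13 (0.08 to 0.18). In LN 0 of 6 receptors and 0 of 22 adaptor, protease and NF-κB genes passed the limit. Only 0.463% of 8635 genes were lower there and 0.266% higher, so that these counts are near the share of all genes. The medians in LN were 0.01 and -0.003, and the lowest ratio was that of *Nfkbia* at -0.36 (-0.40 to -0.32). The receptors farthest from 0 there were *Tnfrsf10b* at 0.24 and *Tnfrsf14* at -0.27, and the next signaling genes were *Nfkb2* at -0.19 and *Traf3* at 0.17. Between tissues, the ratio of tumor over LN was 2.40 in controls and 1.91 in CD8-IFNγRKO mice for *Tnfrsf1b*, and -1.55 and -1.79 for the TRAIL receptor *Tnfrsf10b*. Of the other ligands, *Tnfsf9* was higher in tumor, with ratios of 1.87 and 2.29, and so was *Tnfsf13b*, with 3.50 (3.26 to 3.62) in controls and 2.68 (2.44 to 2.77) in CD8-IFNγRKO mice, where it was below the required mean. The LN libraries held 3 and 2 UMIs of *Tnfsf13b*, so that it reached the mean in controls through the tumor library alone. *Tnfsf9*, at 1.71 and 1.91 CPM in control and CD8-IFNγRKO LN, also reached the mean only through the tumor libraries. *Tnfrsf10b*, at 2.35 and 2.33 CPM in control and CD8-IFNγRKO tumors, reached it only through LN. Such entry favors a call for these 3 genes. Among the signaling genes, the NF-κB inhibitor *Nfkbia* had ratios of 1.42 and 1.41, *Traf1* 1.03 in controls, and *Map3k14*, the kinase of the non-canonical NF-κB pathway, -1.29 and -1.85.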

How the data were processed

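CD8 T cells of tumors and draining LN were profiled in 1 library per tissue and genotype, with cells of 3 mice pooled. The deposited expression matrices hold counts of UMIs, not normalized, which the authors made with Cell Ranger 6.0.0 on mm10, and contig tables of the tumor TCR libraries. These counts come from 5′ ends and were not scaled for gene length.

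The filters of the study's methods were applied: between 200 and 6000 detected genes, no more than 3% of UMIs from mitochondrial genes, no more than 20% from the top gene, and a UMI of each of *Cd2*, *Cd8a* and *Cd8b1*. Barcodes with 3 or more markers of another lineage were removed (3 to 62 per library). Suspected doublets were kept, and leaving out the 8% of cells with most UMIs was an alternative. Genes with a mean of 5 CPM over both libraries entered a comparison, without 254 TCR segments. The limit was a log2 ratio of 0.5 between genotypes and 1 between tissues. Shares of cells used 1600 UMIs drawn per cell, which left out 41 to 699 cells per library, with exact 95% binomial (Clopper-Pearson) intervals. All intervals cover counting error only, and precision is set by the depth of 28806449 to 92989333 UMIs per library.

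Clusters used 3000 variable genes without the ligands, *Ifngr1*, TCR, heat shock and sex-linked genes, 15 principal components, Harmony alignment of libraries and Louvain clustering at resolution 0.4. The shares of mitochondrial and ribosomal UMIs and the S and G2/M scores of the cell cycle were regressed out first. A cluster was called X-like where 3 or more of its 10 leading genes were in 1 marker list; the *Tcf7*-led T2 met this for naive cells but is called by its leading genes, a choice made after its *Fasl* level was seen. A clone was all cells of a library with the same α and β CDR3. Named genes were the 9 ligands, pathway genes past the limit or among the 2 largest ratios in each direction, *Ifngr1*, and the 3 genes with the highest Pearson's r to each ligand among genes with a mean of at least 20 CPM. The members and the gene lists were chosen with earlier results of these data known. Promoter windows came from the RefSeq table of GRCm38.p6, in which 8 of 9 ligands matched.

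Scripts were tested on simulated data: 95.0% of tumor and 94.5% of LN genes with a known change had it within the interval, over 8828 and 8702 genes with 200 changed in each. The simulated counts were Poisson draws without variation between cells, clones or mice. They therefore check the code and not how the intervals fare on real cells. Tools were scikit-learn 1.9.0, python-igraph 0.11.9, scipy 1.17.1, matplotlib 3.10.9, pandas 2.3.3 and numpy 2.4.6 in Python 3.11.15, and R 4.3.3 with Seurat 5.3.0 for its cell cycle lists.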

Additional observations from a re-analysis of the deposited data

Results flagged for a closer look

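*Ltb* was flagged because its genotype ratio had opposite signs in the 2 tissues, -0.44 in tumors and 0.11 in LN, in 1 library each. The difference between tissues was not tested.

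Barcodes that lacked a UMI of at least 1 of *Cd2*, *Cd8a* and *Cd8b1* were outside every comparison above, and ligand UMIs were found there too. *Tnfsf8* was at 17.4 (14.6 to 20.6) CPM in 3048 such barcodes of the CD8-IFNγRKO tumor library, with a median of 1906.5 UMIs, and at 11.2 (8.63 to 14.3) CPM in 3817 of the control tumor library, with a median of 912 UMIs, against 2.65 and 2.31 CPM in the cells kept. *Ltb* was at 874 (859 to 889) CPM in 4418 such barcodes of the CD8-IFNγRKO LN library and at 813 (799 to 827) CPM in 6166 of the control LN library.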

How the results depend on the processing

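Over all alternatives, 349 of 450 ratios of the ligands moved by less than their counting interval, 101 moved further, and 0 of the ratios past the limit changed sign. The genotype ratio in tumors ran from -1.60 to -1.31 for *Tnfsf11*, from -0.80 to -0.60 for *Tnf*, from -0.67 to -0.46 for *Fasl*, from -0.47 to -0.21 for *Ltb* and from -0.15 to 0.19 for *Lta*, and in LN from -0.66 to -0.51 for *Tnf*. Scaling by the median of ratios shifted all log2 ratios by 0.03 between genotypes and by 0.19 and 0.21 between tissues. The counts of genes and ligands past the limit moved as follows, and the cause was not tested unless the setting itself changes how many genes are read. In the main setting, 0 ligands and 7.34% of 8788 genes were higher between genotypes in tumors. There, 1 ligand and 11.8% of 9011 genes were lower in tumor than in LN of CD8-IFNγRKO mice. The counts below lack the number of genes read under each setting, so that they are not shares and are no result about the ligands. Without TCR, mitochondrial, ribosomal and heat shock genes in the library size, 64 genes were lower in LN between genotypes, 1694 and 1830 genes were lower in tumor than in LN of control and CD8-IFNγRKO mice, and 2 ligands were lower in tumor of CD8-IFNγRKO mice, as with the median of ratios. Without the *Cd2*, *Cd8a* and *Cd8b1* filter, 14 genes were higher in LN, and in thinned cells 56. In thinned cells without cycling UMIs, 2 ligands were higher in tumors and 80 and 68 genes higher and lower in LN. With no minimum level, 64 and 122 genes were higher and lower in LN, 1409 genes were lower in tumor than in LN of controls, and 2 ligands were lower in CD8-IFNγRKO mice. With at least 50 CPM, 200 and 155 genes were higher and lower between genotypes in tumors and 7 and 7 in LN, with 0 ligands lower there, and between tissues 452 and 200 genes with 1 and 0 ligands in controls and 514 and 254 genes with 0 and 0 ligands in CD8-IFNγRKO mice. Of 108 cluster levels relative to the rest of the library, 4 reversed: at resolution 0.2, *Tnfsf14* in the *Xcl1*-led cluster of CD8-IFNγRKO tumors (-0.31) and *Tnf* in that of control tumors (-0.53), and without alignment, *Tnfsf11* in the *Tcf7*-led cluster of CD8-IFNγRKO tumors (0.14) and *Tnf* in that of control tumors (-0.63). All 18 clone ratios kept their direction with clones defined by the β chain alone. No paired analysis was possible because each group was 1 library and no test was made, and for the same reason no library could be left out. Depth limits the ratios of *Cd40lg* (44 to 82 UMIs per library) most, and those of *Fasl* and *Tnfsf11* in LN (81 to 109 UMIs).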
